A study of Mus musculus with 721 samples.

Results

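Fev precursors were 90 single cells that held transcripts of Fev, an ETS-family transcription factor, while Neurog3 and the 5 islet hormone genes Ins1, Ins2, Gcg, Ghrl and Sst were low. The cells were chosen by thresholds on the deposited values, with Fev at 10 FPKM or more and Neurog3 and each of the 5 hormones under 100 FPKM (fragments scaled to transcript length and to the mapped total). They came from 495 cells of 3 embryonic days that passed minimums of 100000 fragments and 1500 genes at 1 FPKM or more, out of 658 such cells and 721 cells in the whole series. All cells were sorted singly as eGFP-positive cells from pancreata of Neurog3-eGFP mouse embryos, in which eGFP reports on Neurog3, and every cell was read by SMART-seq of full-length cDNA. Every group compared carries this reporter and none was treated, and the labels name no embryos. Embryonic days E13.5, E14.5 and E15.5 were each labelled with 2 runs, which gave 6 cell sets of 1 day and 1 run. The set, not the cell, was the unit of every test, so p-values measure only the spread between these sets. The 2 runs of a day could stem from shared embryos.

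Neurog3 is the basic helix-loop-helix factor that commits pancreatic progenitors to the endocrine lineage, and it is expressed only for a short time in each cell. Fev follows Neurog3 in that lineage and marks cells on the way to hormone expression, as well as serotonin neurons of the brain. Cells leaving the Neurog3 stage are known to stop dividing, to leave the epithelial cords and to build the dense-core granules in which peptide hormones are stored.

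The other cells of the same 6 sets were divided by the same 7 transcripts. Neurog3-only cells (141) had Neurog3 at 100 FPKM or more without Fev, and 56 cells had both Neurog3 and Fev at these thresholds. Hormone cells (150) had at least 1 of the 5 hormones at 100 FPKM or more, and 58 cells had none of the 7 transcripts at its threshold. Because every class was cut on these 7 transcripts, they were left out of all tests, and a transcript that follows one of them closely differs between classes through the cut as well.

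Fev precursors made up 18.18% of the 495 cells (95% exact Clopper-Pearson interval 14.88 to 21.87%, counting error only). In run 1 the share was 19.12% (13 cells), 22.34% (21) and 15.91% (14) along the 3 days, and in run 2 it was 15.38% (12), 16.47% (14) and 19.51% (16). At the same thresholds 1 of 73 cells at E11.5 and 0 of 90 cells at E12.5 qualified. Fev in the chosen cells ran from 10.74 to 521.5 FPKM, and 19 of them lay between 10 and 20 FPKM, against 19 cells just under the threshold at 5 to 10 FPKM. The highest Neurog3 value was 99.48 FPKM, 15 cells lay between 50 and 100 FPKM, and 13 cells with Fev lay just above the limit, at 100 to 200 FPKM. The highest hormone value was 78.26 FPKM, with 6 precursors at 50 to 100 FPKM and 4 cells with Fev just outside at 100 to 200 FPKM. Whether Neurog3 had been lost in these cells was not measured in time. Of the precursors 24 held Neurog3 at 10 to 100 FPKM and 39 held it under 1 FPKM. The cells were low in the 5 hormones used to choose them, but not in other peptides, as described further on.

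The precursors held 156443 to 1500000 fragments per cell, with a median of 583065. Differences from the other cells of the set in fragments, genes detected, mitochondrial share and the share of predicted and small RNA genes did not pass an exact paired permutation test over 6 sets (two-sided, p = 0.281, 0.312, 0.375 and 0.125, and 0.375, 0.375, 0.375 and 0.312 after adjustment over 5 measures). Set E13.5 run 1 stood apart in composition. The ribosomal protein gene Rpl13 had 93.7 FPKM in its precursors and 115 FPKM in its other cells, against 563 to 1305 FPKM in the precursors and 1196 to 1582 FPKM in the other cells of the other 5 sets. In the precursors of run 2, 41 to 44.2% of FPKM fell on predicted and small RNA genes, against 8.92 to 21.3% in those of run 1. Xist, the transcript of the inactive X, reached 10 FPKM in 47 of the 60 precursors of E13.5 and E14.5 and in 0 of 30 at E15.5, while the Y-linked Ddx3y did so in 0 and in 14, so the days also differ in the sex of the embryos. The runs shared 58, 83 and 77 index pairs at the 3 days, but cells with the same index pair correlated no more between runs (median r 0.463, 0.461 and 0.456) than all pairs did (0.464, 0.459 and 0.454). Summed over 9 acinar or tip markers the precursors had 4.91 to 70.6 FPKM per set against 18.52 to 208 FPKM in other cells, with Amy2a5 and Prss2 at 0, and 5 precursors held 2 or more of these markers at 10 FPKM. For markers of leukocytes, endothelium, mesenchyme, blood cells, and neural crest and glia that number was 0 or 1 cell, and the highest sums in a precursor set were 9.71, 16.9, 8.87, 7.21 and 31.4 FPKM against 264, 4.73, 10.9, 6.65 and 12.9 FPKM in other cells.

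Of the 5 transcripts taken as markers of these cells, Fev itself was used to choose them, and the other 4 were proposed with earlier results of these data known, so their levels are given without a test. Chgb encodes chromogranin B, an acidic protein of secretory granules. Its mean over the precursors of a set had a lowest, median and highest value of 7649, 11099 and 20379 FPKM, against 51.5 to 2049 FPKM in Neurog3-only cells and 1370 to 5440 FPKM in hormone cells. Every set of precursors lay above every set of both those classes. Cells with both Neurog3 and Fev, at 5539 to 12126 FPKM, overlapped with the precursors, although they were lower in each of the 6 sets. All 90 precursors had Chgb at 10 FPKM or more and 84 had it at 1000 FPKM or more.

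Cryba2, a beta-crystallin gene, measured 329, 594 and 844 FPKM (lowest, median and highest set) in the precursors, 4.79 to 212 FPKM in Neurog3-only cells and 142 to 597 FPKM in hormone cells. The precursors were above the Neurog3-only cells in all 6 sets without overlap, and above the hormone cells in 5 of 6 sets with overlapping ranges. Cells with both factors, at 164 to 770.4 FPKM, overlapped with them as well. Runx1t1, a transcriptional corepressor, measured 44.6, 125 and 160.4 FPKM in the precursors against 56.4 to 336 FPKM in cells with both Neurog3 and Fev and 28.1 to 59.2 FPKM in hormone cells. It was lower in hormone cells of the same set in all 6 sets. Vwa5b2 did not set the precursors apart, with 90.3, 122 and 204 FPKM in them and 92 to 179 FPKM in Neurog3-only cells. It was higher in the precursors than in Neurog3-only cells in 1 of 6 sets, and above hormone cells (60.1 to 136 FPKM) in 6 of 6 with overlapping ranges.

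**Figure D1:**
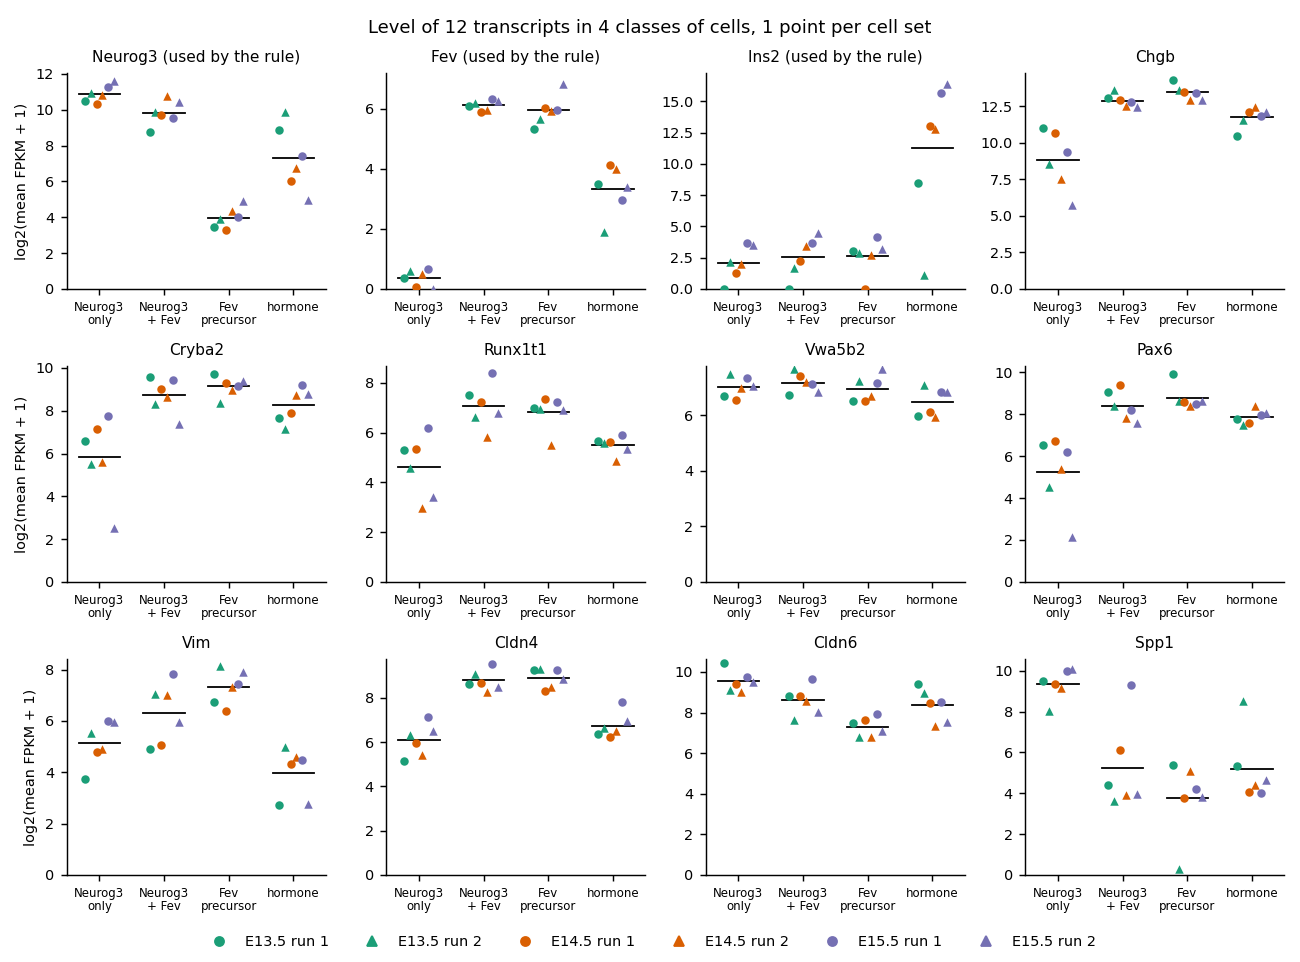
Mean level of 12 transcripts (vertical axes, log2 of mean FPKM + 1) in Neurog3-only cells, cells with Neurog3 and Fev, Fev precursors and hormone cells, with 1 point per cell set and a line at the mean of the 6 sets. Neurog3, Fev and Ins2 were used to cut the classes; Vim is higher in the precursors than in cells holding both factors in 5 of 6 sets and in 6 of 6 against hormone cells, while Vwa5b2 overlaps between the precursors and each other class.

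Fev and Cryba2 are neighbours on chromosome 1. On build GRCm38 (GENCODE vM21) Fev lies at chr1:74881509-74885419 and Cryba2 at chr1:74889934-74893143, both on the minus strand and separated by 4514 bp. Fev was present in all 90 precursors because it chose them, and Cryba2 was found in 89 of the 90. Across precursors their levels correlated weakly (Spearman rho 0.33 over 90 cells, 0.116 to 0.553 within sets). This correlation is a description only, since cells of a set share their day and run and depth differs between cells. Hormone cells, with Fev at 2.76 to 16.7 FPKM per set, had Cryba2 at 142 to 597 FPKM. Because the genes are neighbours, the 250 bases before each start are shown. They are RefSeq sequences of build GRCm38.p6, at chr1:74885409-74885658 and chr1:74893144-74893393 on the minus strand, and capitals mark the E-box CANNTG, the motif class bound by basic helix-loop-helix factors.
Fev: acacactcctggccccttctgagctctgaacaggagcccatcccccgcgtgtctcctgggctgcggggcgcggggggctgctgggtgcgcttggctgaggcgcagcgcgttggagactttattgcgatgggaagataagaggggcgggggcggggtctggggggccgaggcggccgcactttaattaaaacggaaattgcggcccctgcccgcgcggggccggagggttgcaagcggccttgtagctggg
Cryba2: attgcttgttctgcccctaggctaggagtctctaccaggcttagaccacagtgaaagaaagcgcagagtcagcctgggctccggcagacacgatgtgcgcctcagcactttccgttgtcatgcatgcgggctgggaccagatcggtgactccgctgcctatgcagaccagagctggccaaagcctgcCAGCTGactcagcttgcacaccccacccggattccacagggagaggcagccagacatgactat
Both strands were searched for CANNTG and for CCGGAA, a core of ETS-family sites. Cryba2 held 1 CANNTG, which read CAGCTG, and Fev held none, while 66.2% of 32851 promoters of this length held CANNTG and 13% held CAGCTG. Neither window held CCGGAA, which 12% of promoters held. A match is a description of the letters, and the data here hold no measure of binding.

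Against all other cells of the same set, the precursors were higher for the cytoskeletal and junction genes Vim and Cldn4, the endocrine factor Pax6, the chromatin protein gene Hmgn3, the granin Chga and the ectoenzyme gene Entpd3. They were lower for genes of the epithelial trunk, of the Neurog3 stage and of DNA replication. Of 15532 genes tested with limma on log2(mean FPKM + 1), with the set as a block and Benjamini-Hochberg adjustment, 29 were higher (0.187% of those tested) and 184 lower (1.18%) at an adjusted p under 0.05. The markers Chgb, Cryba2 and Runx1t1 are among the 29 higher genes and count there as a description only. The median difference over all genes was -0.243, so lower calls start from that shift. The precursor profile of a set averages 12 to 21 cells and the other profile 55 to 74 cells. With the mean over cells of log2(FPKM + 1) in place of the log of the mean, the median difference was -0.03, and 137 genes were higher (0.882%) and 283 lower (1.82%), of which 27 and 140 were the genes called above. With FPKM rescaled over named nuclear genes, 79 were higher and 164 lower.

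Vim encodes vimentin, an intermediate filament protein best known from mesenchyme. It measured 81.7, 165 and 279.9 FPKM (lowest, median and highest set) in the precursors and 18.6 to 64.7 FPKM in the other cells, with no overlap. The difference was 1.90 (SE 0.23, adjusted p = 0.00859) on the log2 scale. Cells with both Neurog3 and Fev, at 29.1 to 228 FPKM, overlapped with the precursors (difference 1.01, SE 0.33, adjusted p = 0.599). At 10 FPKM or more it was found in 63.3% of precursors, 34.8% of Neurog3-only cells, 37.5% of cells with both factors and 17.3% of hormone cells. Markers of mesenchyme summed to 0.228 to 8.87 FPKM per set in the precursors and 0.37 to 10.9 FPKM in other cells, and 1 precursor held 2 of these 6 markers at 10 FPKM.

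Cldn4, a claudin of tight junctions, measured 318, 532 and 632 FPKM in the precursors against 88.7 to 229 FPKM in other cells, again without overlap (difference 1.71, SE 0.19, adjusted p = 0.00643). Cells with both Neurog3 and Fev had Cldn4 in the same range, at 309.8 to 735 FPKM (difference 0.13, SE 0.17, adjusted p = 0.852). Its relative Cldn6, a claudin of early epithelia, went the other way, with 110.5, 157 and 244 FPKM against 292 to 979.5 FPKM and a difference of -1.54 (SE 0.20, adjusted p = 0.00977). Every precursor set was below every other set for Cldn6. Hmgn3, which encodes a nucleosome-binding protein, was present in all 90 precursors at 10 FPKM or more and measured 627, 928 and 2009 FPKM, with a difference of 1.14 (SE 0.12, adjusted p = 0.00643) and higher values in 6 of 6 sets. Cells with both Neurog3 and Fev overlapped with the precursors for Hmgn3, at 404 to 1401 FPKM (difference 0.29, SE 0.15, adjusted p = 0.729). Of the 12 named higher genes other than the markers, Vim, Cldn4 and Hmgn3 were the 3 that stayed past the threshold when each set was left out in turn.

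The other 9 of those genes, among them Chga and Entpd3, stayed past it in at most 1 of the 6 such fits. Gimap6, a GTPase gene known from lymphocytes, measured 10.2, 35.2 and 57.1 FPKM in the precursors and 0.695 to 13.49 FPKM in other cells, with 24 of 90 precursors at 10 FPKM or more and a difference of 2.46 (SE 0.38, adjusted p = 0.0189). Leukocyte markers summed to 0.814 to 9.71 FPKM per set in the precursors and no precursor held 2 of these 6 markers at 10 FPKM. Usp18, the deconjugating enzyme of the interferon-induced modifier ISG15, measured 96.7, 242 and 1170 FPKM against 61.4 to 176 FPKM (difference 1.49, SE 0.25, adjusted p = 0.0292), with its highest value in E13.5 run 1. Entpd3, a nucleotide-degrading ectoenzyme of islet cells, did not overlap, at 126, 204 and 263 FPKM against 44.3 to 105 FPKM (difference 1.30, SE 0.23, adjusted p = 0.0351). Rfx2, a regulatory factor X gene of ciliogenesis, was higher by 1.66 (SE 0.30, adjusted p = 0.0346) and did not overlap either. Without 1 set the adjusted p reached at most 0.0733 for Gimap6, 0.0818 for Usp18, 0.0984 for Entpd3 and 0.102 for Rfx2, while the differences stayed within 2.2 to 2.77, 1.24 to 1.65, 1.11 to 1.43 and 1.4 to 1.8. Cells with both Neurog3 and Fev overlapped with the precursors for each of these genes, at 0 to 42.4, 71.1 to 314, 21.5 to 176 and 9.17 to 58 FPKM.

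**Figure D2:**
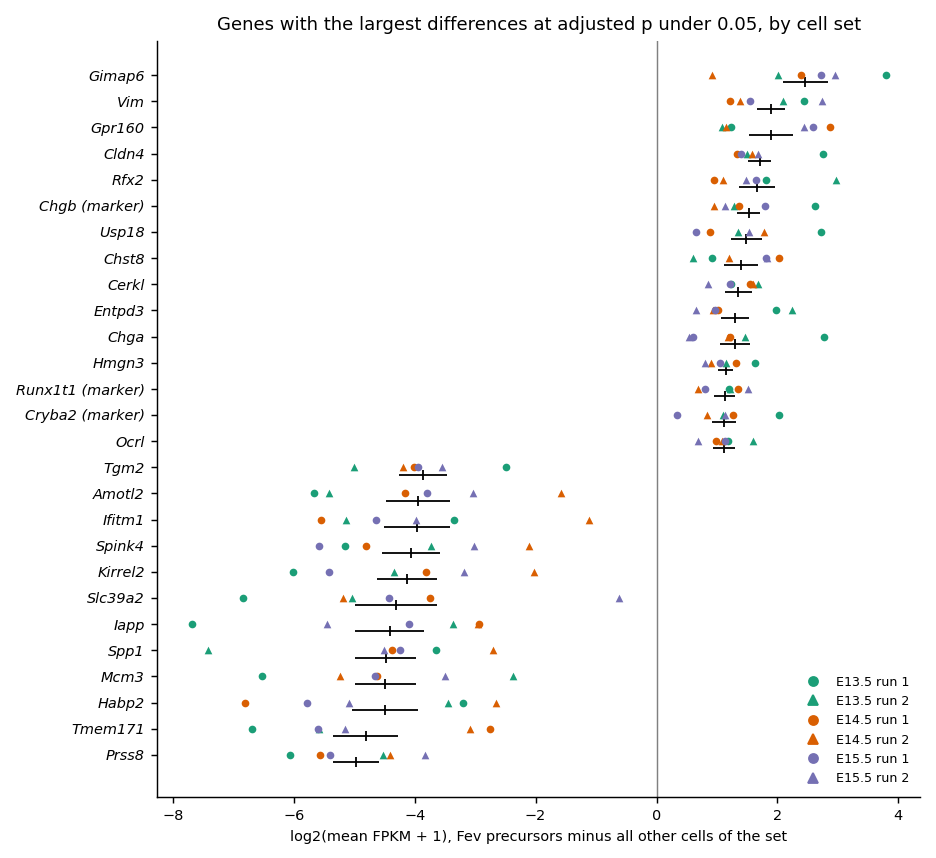
Difference between Fev precursors and all other cells of the same set (horizontal axis, log2 of mean FPKM + 1) for the 15 higher and 12 lower genes that the naming rule took, with 1 symbol per cell set and the fitted difference with its standard error as a black bar under the symbols. Genes marked as markers are shown as a description; all symbols of a gene lie on 1 side of 0, and for Cldn4 the set E13.5 run 1, at 2.75, lies apart from the other 5.

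Of 13 tested pan-endocrine factors 1 was higher against all other cells and none lower, beside 0.187% and 1.18% over all genes. That 1 was Pax6, a paired-box factor needed for islet cell differentiation. It measured 338, 387 and 953 FPKM in the precursors and 162 to 249.7 FPKM in other cells, without overlap, and differed by 1.10 (SE 0.19, adjusted p = 0.0319). Cells with both Neurog3 and Fev had Pax6 at 193 to 664 FPKM, which overlapped with the precursors. The call was kept without E13.5 run 1 and lost without any one of the other 5 sets, with an adjusted p of up to 0.0946. Chga, with 976, 2115 and 3262 FPKM against 226 to 2241 FPKM, was close to the threshold at 1.30 (SE 0.25, adjusted p = 0.0492), and its call likewise held only without E13.5 run 1. Of the 14 tested granin and prohormone processing genes Chga was the 1 higher, and Scg2, secretogranin II, was the 1 lower (difference -2.59, SE 0.47, adjusted p = 0.0353, a call kept only without E13.5 run 2), with a list median of 0.092. On the mean of log2 values 6 of these 14 were higher and none lower, and Scg2 did not pass (adjusted p = 0.212 in limma). Neurod1, a direct target of Neurog3, was present in all 90 precursors at 10 FPKM or more but its difference of 0.62 (SE 0.17, adjusted p = 0.124) did not pass, except with the mean of log2 values (adjusted p = 0.0017 in limma).

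Among the lower transcripts were genes known from the epithelium that gives rise to these cells, some of which hormone cells held as well. Prss8, the membrane protease prostasin, was listed at 0 FPKM in 4 of the 6 precursor sets and reached 0.299 FPKM in the highest, against 13.2 to 65.6 FPKM in other cells, a difference of -4.96 (SE 0.38, adjusted p = 0.0015) on the log2 scale. No precursor held it at 10 FPKM, which allows a share of up to 3.33%, against 44% of Neurog3-only cells. Spp1, osteopontin, a marker of duct and trunk epithelium, measured 0.221, 15.3 and 41.2 FPKM against 209 to 528 FPKM (difference -4.48, SE 0.51, adjusted p = 0.00672). Prss8 and Spp1 did not overlap between precursors and other cells, and both calls held without any one set. In hormone cells Prss8 measured 3.16 to 40.8 FPKM per set, above the precursors in 6 of 6 sets (difference -4.10, SE 0.52, adjusted p = 0.0245 in limma). That call was kept only without E14.5 run 2 or E15.5 run 2. Spp1 measured 14.9 to 366 FPKM in hormone cells, and the precursors were higher in 3 of 6 sets. With so little transcript in the precursors, the size of these differences depends on the pseudocount.

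Over all genes 1.18% were lower and 0.187% higher. Of 10 tested trunk and tip progenitor genes, 3 were lower and none higher, with a list median of -1.85 against -0.243 for all genes. The 3 were Spp1, the annexin gene Anxa2 (difference -3.86, SE 0.51, adjusted p = 0.0114) and clusterin, Clu (difference -2.06, SE 0.24, adjusted p = 0.00739). In hormone cells Clu measured 116 to 240 FPKM per set, above every precursor set. Anxa2 measured 3.74 to 92.2 FPKM there and overlapped with the precursors. Sox9, a transcription factor of the trunk, had a difference of -0.53 that did not pass (adjusted p = 0.462 in limma). Hes1, the effector of Notch signalling, was listed at 0 FPKM in every precursor. It was near the floor in other cells too, at 0.269 to 2.44 FPKM per set, and at most 0.482 FPKM in cells with both factors.

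Genes that are on at the Neurog3 stage were lower as a list, with 6 of 12 tested lower, none higher, and a median of -1.85. Over all genes 1.18% were lower and 0.187% higher. Gadd45a, a growth-arrest gene, measured 3.96, 20.7 and 36.1 FPKM in the precursors and 58.2 to 249 FPKM in other cells (difference -2.83, SE 0.48, adjusted p = 0.0292), without overlap. Its call was kept only without E13.5 run 2, where it was lowest. Mfng, the manic fringe glycosyltransferase of Notch receptors, measured 59.7, 78.3 and 169 FPKM against 105 to 517 FPKM, and the corepressor Cbfa2t3 measured 2.28, 5.99 and 9.86 FPKM against 15.2 to 32.7 FPKM. Mfng overlapped between the groups and Cbfa2t3 did not, with differences of -1.55 (SE 0.22, adjusted p = 0.0141) and -1.94 (SE 0.27, adjusted p = 0.0125). Tead2, a DNA-binding partner of YAP, was lower, at -2.42 (SE 0.30, adjusted p = 0.00906), and kept its call without any one set. The same list was defined by genes that accompany Neurog3, and Neurog3 was a limit of the choice of cells. Of its genes 0 of 11 tested passed against cells with both factors and 0 of 12 against hormone cells. With the mean of log2 values 5 were lower than in cells with both factors and 0 than in hormone cells. Mfng had 23.3, 85.3 and 430 FPKM in hormone cells (lowest, median and highest set), and the precursors were higher than these in 3 of 6 sets.

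Tubb3, a neuronal beta-tubulin that is also on in Neurog3 cells, measured 106, 124 and 171 FPKM in the precursors, 366 to 1429 FPKM in Neurog3-only cells and 127 to 844 FPKM in hormone cells. It was lower than in the other cells of the set in 6 of 6 sets without overlap (difference -1.80, SE 0.24, adjusted p = 0.0122), a call lost without E14.5 run 1 (adjusted p = 0.054). Tubb3 was 1 of 2 lower genes among 13 tested of the neuronal cytoskeleton and guidance list, where 1.18% of all genes were lower. The other was the semaphorin receptor gene Nrp1, whose call was lost without any one set.

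DNA replication genes were lower too. Of 25 tested cell-cycle genes 4 were lower and none higher, beside 1.18% and 0.187% over all genes. Mcm3, a subunit of the replicative helicase, measured 0, 0.4 and 6.01 FPKM in the precursors against 16 to 95.7 FPKM in other cells (difference -4.49, SE 0.51, adjusted p = 0.00672), and 1 of 90 precursors had it at 10 FPKM against 51.8% of Neurog3-only cells. Mcm5, Mcm6 and Cdk1 were the others, at -3.27, -2.10 and -2.98 on the log2 scale. Against cells with both factors, and likewise against hormone cells, 0 of 25 tested cell-cycle genes passed. Mcm3 had a median set of 12.1 FPKM in cells with both factors and 4.83 FPKM in hormone cells. Cdk1 had 0.0613 FPKM in the median precursor set, 0.097 FPKM in that of cells with both factors and 1.85 FPKM in that of hormone cells. Of 10 tested D cyclins and cell-cycle inhibitors 4 were lower, with Ccnd2 at -2.48 (SE 0.37, adjusted p = 0.0169) and Ccnd3, Cdk4 and Cdkn1a at -1.43, -0.78 and -0.78. In hormone cells Ccnd2 measured 3.78 to 27.3 FPKM per set, above every precursor set, and in Neurog3-only cells 4.46 to 19.5 FPKM. Against hormone cells 0 of these 10 genes passed, and with the mean of log2 values 1 was higher and 1 lower. The calls of Mcm3 and Cdk1 held without any one set, that of Mcm5 was lost without E15.5 run 1, that of Mcm6 was kept only without E13.5 run 1 or E15.5 run 2, and that of Ccnd2 was lost without E13.5 run 1, E14.5 run 1 or E15.5 run 1. The calls of Ccnd3 and Cdk4 were lost without any one set, and that of Cdkn1a without any one but E13.5 run 1. With the mean of log2 values Cdk1, Ccnd3, Cdk4 and Cdkn1a did not pass (adjusted p = 0.0712, 0.0778, 0.14 and 0.846 in limma), and of the D cyclins and inhibitors 1, Ccnd2, was then lower.

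Leaving out 1 set at a time moved the counts of higher and lower genes by over 1.5 times in each case. They were 10 and 70 without E13.5 run 1, 10 and 81 without E13.5 run 2, 7 and 53 without E14.5 run 1, 11 and 103 without E14.5 run 2, 10 and 69 without E15.5 run 1, and 16 and 116 without E15.5 run 2. Of the 12 named lower genes, 9 kept their call in all 6 fits and Slc39a2, a zinc transporter gene, in 1.

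The comparison with Neurog3-only cells gave the most calls. Most granin and prohormone processing genes and 5 of 9 tested peptides were higher in the precursors, and 595 of 14973 tested genes were higher (3.97%) and 727 lower (4.86%). With the mean of log2 values 1196 were higher (7.99%) and 1031 lower (6.89%), and 580 and 670 genes were shared with the first counts. Without E14.5 run 1 there were 374 higher and 453 lower genes, and without E13.5 run 2 there were 484 lower ones. The 4 class comparisons share the precursor profiles, so their values stand side by side and are not independent of each other.

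Of 14 tested genes for granins and prohormone processing, 12 were higher and none lower, with a median of 3.13 against -0.013 for all genes. Chga, chromogranin A, measured 976, 2115 and 3262 FPKM in the precursors and 8.53 to 469.9 FPKM in Neurog3-only cells, without overlap (difference 5.12, SE 0.69, adjusted p = 0.00208). Pcsk2, a prohormone convertase, measured 52.9, 121 and 296 FPKM against 0.322 to 32.4 FPKM (difference 4.74, SE 0.59, adjusted p = 0.00144), and carboxypeptidase E, Cpe, 144, 161 and 332 FPKM against 8.09 to 38 FPKM (difference 3.30, SE 0.31, adjusted p = 0.000356). All 3 were higher in 6 of 6 sets, and the Chga call held without any one set. Resp18, a granule protein gene, showed the largest difference of the list at 6.24 (SE 0.51, adjusted p = 0.000209), although 41 of 90 precursors held it at 10 FPKM. Scg2 was higher than in Neurog3-only cells (difference 2.96, SE 0.60, adjusted p = 0.0149) and lower than in hormone cells (difference -3.89, SE 0.42, adjusted p = 0.0103), the second call being lost without E13.5 run 1, E14.5 run 1 or E15.5 run 1. Of 16 tested genes of regulated exocytosis 4 were higher and 1 lower, beside 3.97% and 4.86% over all genes. The 1 lower gene of that list is near the share over all genes. Snap25 and Stx1a, both proteins of the vesicle fusion machinery, were higher by 2.86 and 2.42 (adjusted p = 0.0104 and 0.00637 in limma).

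Usp18, Entpd3 and Tmem27, which encodes the membrane protein collectrin, were low in Neurog3-only cells. Their sets there ran to at most 12.9, 31.8 and 8.05 FPKM, against at least 96.7, 126 and 152 FPKM in the precursors. The differences were 6.18 (SE 0.40, adjusted p = 0.000125), 5.4 (SE 0.52, adjusted p = 0.000384) and 6.29 (SE 0.60, adjusted p = 0.000384). None of the 3 overlapped, and each call held without any one set.

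Pan-endocrine factors did not move together. Of 13 tested, 4 were higher than in Neurog3-only cells and 2 lower, beside 3.97% and 4.86% over all genes. Pax6 was higher by 3.51 (SE 0.51, adjusted p = 0.00308), the LIM-homeodomain gene Isl1 by 2.95 (SE 0.49, adjusted p = 0.00613), Neurod1 by 1.26 and St18 by 2.32. Insm1 and Nkx2-2, zinc-finger and homeodomain factors of early endocrine cells, were lower at -1.23 (SE 0.27, adjusted p = 0.0206) and -1.21 (SE 0.28, adjusted p = 0.0293). Cell-cycle genes were lower in 12 of 27 tested and higher in none. Among D cyclins and inhibitors, 5 of 10 were lower and Cdkn1b, the inhibitor p27, was the 1 higher gene, at 10.9, 18.9 and 30.3 FPKM against 0.449 to 7.45 FPKM without overlap (difference 2.12, SE 0.46, adjusted p = 0.0201). All 11 tested early Neurog3-stage genes were lower.

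**Figure D3:**
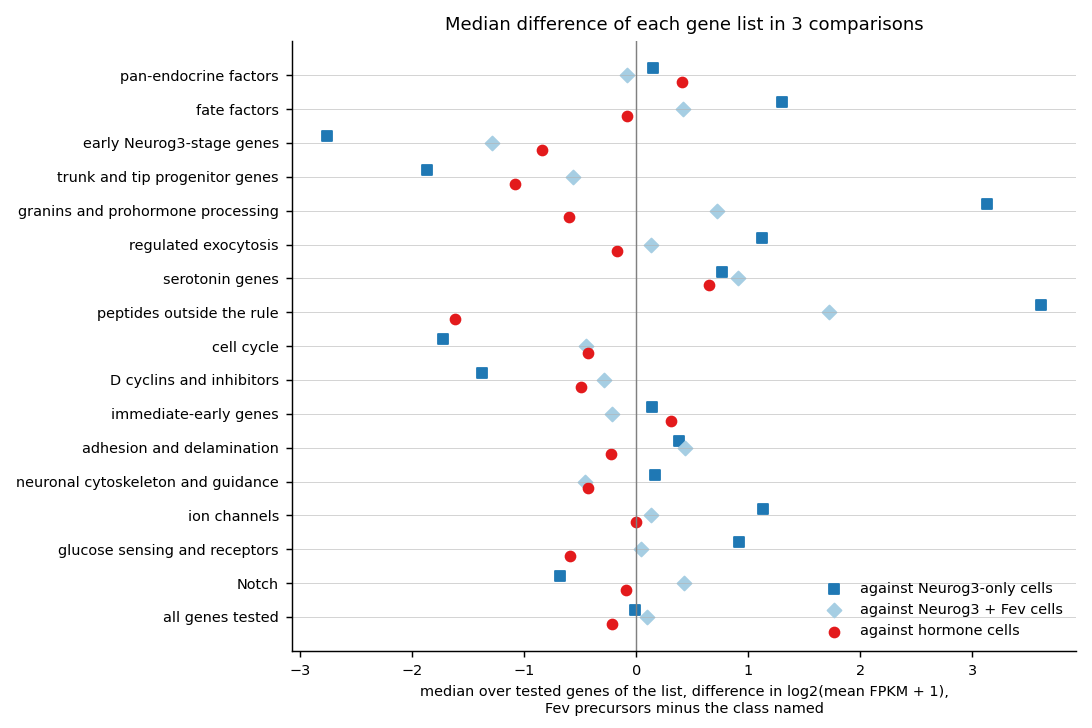
Median over the tested genes of each list of the difference between Fev precursors and another class (horizontal axis, log2 of mean FPKM + 1), for Neurog3-only cells (squares), cells with both factors (diamonds) and hormone cells (circles). Granin and peptide lists lie at 3.13 and 3.61 against Neurog3-only cells and at -0.596 and -1.62 against hormone cells, with all genes tested at -0.013 and -0.217.

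The comparison with cells holding both Neurog3 and Fev gave the fewest calls. Of 14465 genes, 0 were higher (0%) and 0 lower (0%) in limma, with 664 higher and 347 lower at an unadjusted p under 0.05. The profiles of these cells average 5 to 17 cells per set. With the mean of log2 values 27 genes were higher (0.187%) and 20 lower (0.138%). On that scale Chga was higher by 1.69 (adjusted p = 0.0102 in limma), Isl1 by 2.76 (adjusted p = 0.011), Gast by 3.25 (adjusted p = 0.0102) and Tmem27 by 3.28 (adjusted p = 0.00308). Pax4, Mfng, Tubb3 and Cbfa2t3 were lower, at -2.23, -2.76, -3.28 and -2.27 (adjusted p = 0.00136, 0.00207, 0.00136 and 0.0102 in limma). On the scale of log2(mean FPKM + 1), these 4 genes were lower in 6 of 6 sets without passing the test.

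Against hormone cells 6 of 15242 genes were higher (0.0394%) and 36 lower (0.236%), with a median difference of -0.217 over all genes. The mean of log2 values gave 63 higher (0.413%) and 306 lower (2.01%), and rescaled FPKM gave 30 higher and 21 lower, so the balance of directions depends on the scale. The 6 higher genes include the marker Runx1t1, proposed with earlier results of these data known, so its call is a description only. It was lost without any one set. The other higher genes named by the rule were Vim, Gimap6, Cldn4, Dusp6 and Chst8. Vim measured 5.66 to 30.5 FPKM in hormone cells, below every precursor set, and differed by 3.34 (SE 0.38, adjusted p = 0.0135). Cldn4 measured 74.2 to 226 FPKM there and differed by 2.17 (SE 0.21, adjusted p = 0.01). Dusp6, a phosphatase of ERK, measured 20.1, 69.8 and 114 FPKM in the precursors and 9.03 to 14 FPKM in hormone cells (difference 2.29, SE 0.32, adjusted p = 0.0273). The Cldn4 call held without any one set, the Vim call was lost without E13.5 run 1 or E15.5 run 1 (adjusted p up to 0.0736), and that of Dusp6 was kept only without E13.5 run 1. The call of Gimap6 was kept only without E14.5 run 2, and that of Chst8 in none of these fits.

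Among the 36 genes lower than in hormone cells were Iapp, G6pc2 and Arg1. Of 12 tested genes of glucose sensing and receptors 1, G6pc2, was lower and none higher, beside 0.236% and 0.0394% over all genes. Iapp, islet amyloid polypeptide, which beta cells secrete with insulin, measured 0, 138 and 319 FPKM in the precursors and 258 to 14997 FPKM in hormone cells (difference -5.80, SE 0.61, adjusted p = 0.01), and its call was lost without E15.5 run 1 (adjusted p = 0.0646). G6pc2, the islet glucose-6-phosphatase subunit, measured 0, 4.14 and 14.1 FPKM against 10.1 to 199 FPKM (difference -4.30, SE 0.33, adjusted p = 0.00366) and kept its call without any one set. Arg1, arginase, measured 0, 2.59 and 11.4 FPKM against 53.1 to 344 FPKM (difference -5.12, SE 0.53, adjusted p = 0.01), without overlap, and its call was lost without E13.5 run 1, E14.5 run 1 or E15.5 run 1. The granule zinc transporter gene Slc30a8 was lower, at -2.76 (SE 0.41, adjusted p = 0.028). Counts of higher and lower genes without 1 set were 2 and 4 (E13.5 run 1), 3 and 18 (E13.5 run 2), 2 and 4 (E14.5 run 1), 4 and 20 (E14.5 run 2), 1 and 3 (E15.5 run 1) and 2 and 7 (E15.5 run 2).

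Peptide genes outside the 5 used for the choice were found in most precursors. Of 14 such genes at least 1 reached 10 FPKM in 87 of 90 precursors, and 2 or more did so in 71. At 100 FPKM, the limit used for the 5 hormones, these numbers were 79 and 53. The same counts were not made in the other classes, so they are no trait particular to the precursors. Pyy, peptide YY, was present at 10 FPKM in 50 precursors and at 100 FPKM in 34, Sct, secretin, in 50 and 39, Cck, cholecystokinin, in 47 and 27, and Gast, gastrin, in 36 and 28. Cck measured 39, 122 and 209.5 FPKM in them (lowest, median and highest set), 41.6 to 465 FPKM in Neurog3-only cells, which were above the precursors in all 6 sets, and 11.3 to 449.6 FPKM in cells with both factors (difference -0.72, SE 0.25, adjusted p = 0.119 against Neurog3-only cells, not past the threshold). Sct measured 54.1, 134 and 657 FPKM in the precursors, 62 to 879 FPKM in Neurog3-only cells and 56.9 to 1477 FPKM in cells with both factors, and was higher in the precursors than in either class in 3 of 6 sets. Iapp reached 10 FPKM in 22, Nmb, neuromedin B, in 17, and Ppy, pancreatic polypeptide, and Tac1, the tachykinin precursor, in 13 each. Npy reached it in 0 of 90, which allows a share of up to 3.33%, against 10.7% of hormone cells. The highest values in a single precursor were 183463 FPKM for Gast and 78124 FPKM for Pyy.

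Against Neurog3-only cells 5 of 9 tested peptides were higher and none lower, beside 3.97% and 4.86% over all genes. Gast measured 94.1, 469 and 15282 FPKM in the precursors and 0.239 to 30 FPKM in Neurog3-only cells without overlap (difference 7.75, SE 0.77, adjusted p = 0.000469), and 959.9 to 3307 FPKM in hormone cells. Its precursor means were 15282, 94.1 and 154 FPKM along the days in run 1 and 3064, 516 and 422 FPKM in run 2. Both E13.5 sets were above the 4 later ones, but in E13.5 run 1 a single cell held 183463 FPKM and the other 12 averaged 1266.6 FPKM. Pyy measured 965, 2683 and 7361 FPKM in the precursors against 7.5 to 344 FPKM in Neurog3-only cells and 3236 to 37066 FPKM in hormone cells, with differences of 4.75 (SE 0.60, adjusted p = 0.00157) and -2.28 (SE 0.32, adjusted p = 0.0264). Tac1, with 1.28, 42.7 and 630.3 FPKM, differed from Neurog3-only cells by 4.98 (SE 0.91, adjusted p = 0.00936), a call that run 2 alone and a pseudocount of 10 did not give. It reached 10 FPKM in 14.4% of precursors and 2% of hormone cells, and its difference from hormone cells, 3.83 (SE 1.47, adjusted p = 0.332), did not pass. Gast and Pyy were together in 24 precursors at 10 FPKM, Gast alone in 12 and Pyy alone in 26, and Ppy was found without Pyy in 1 precursor and with it in 12.

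**Figure D4:**
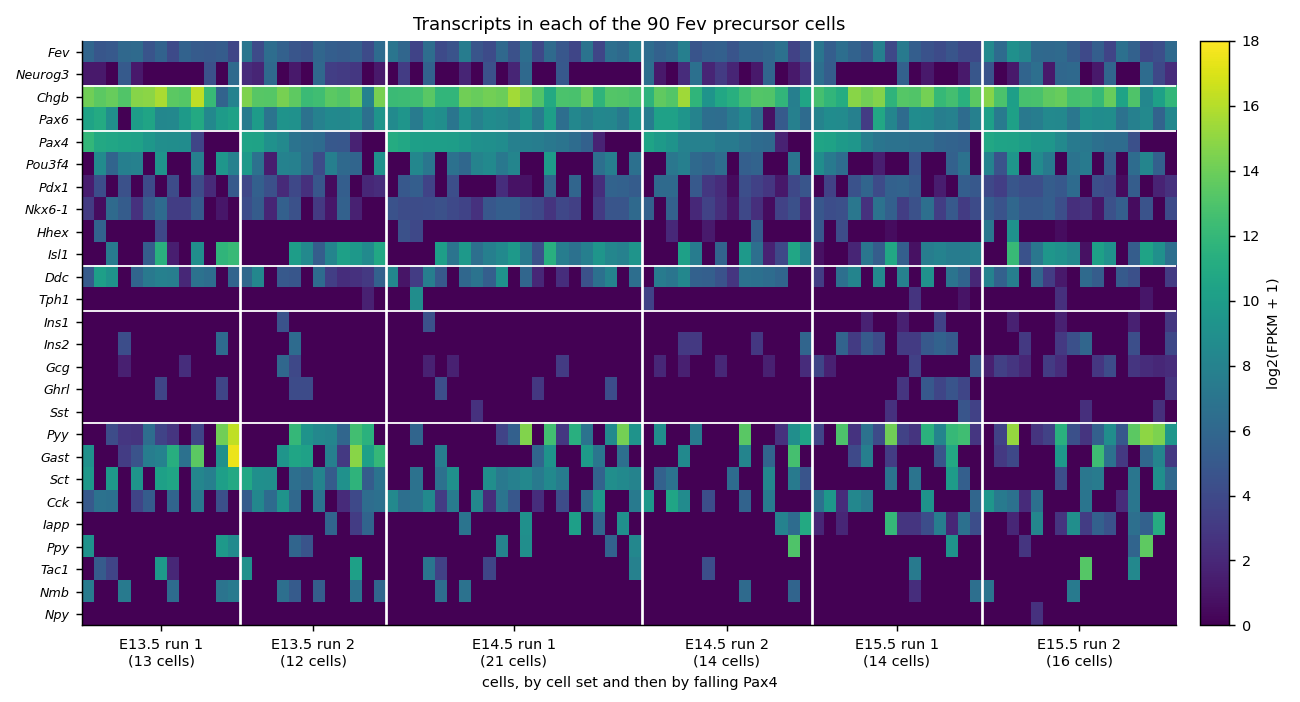
Level of 26 transcripts (rows, colour in log2 of FPKM + 1) in each of the 90 Fev precursors (columns, by cell set and then by falling Pax4). Chgb and Pax6 are present nearly throughout and Pax4 in 73 of 90 cells, while the peptides in the lowest block differ from cell to cell; Fev, Neurog3 and the 5 hormones were used to choose the cells.

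Factors that are known to divide islet fates were mixed among the precursors. Pax4, which favours beta and delta fates, reached 10 FPKM in 73 of 90 precursors, and Pou3f4, an alpha-cell factor, in 55. Both were present in 45 precursors, Pax4 without Pou3f4 in 28, Pou3f4 without Pax4 in 10 and neither in 7. Pax4 measured 300.4, 435 and 933 FPKM in the precursors against 428 to 2358 FPKM in Neurog3-only cells (difference -1.20, SE 0.24, adjusted p = 0.0133), and it was lower than in Neurog3-only cells in 5 of 6 sets. Against all other cells Pax4 did not pass (adjusted p = 0.591 in limma).

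Of 10 tested fate factors 5 were higher than in Neurog3-only cells and Pax4 was the 1 lower, beside 3.97% and 4.86% of all genes. Pou3f4 measured 55.9, 144 and 209 FPKM against 10.3 to 41.5 FPKM without overlap (difference 2.46, SE 0.40, adjusted p = 0.00536). Pdx1, needed for pancreas formation and beta cells, was higher by 1.98 (SE 0.40, adjusted p = 0.0148), with 52.2% of precursors and 10.6% of Neurog3-only cells at 10 FPKM. Nkx6-1, a beta-cell factor, reached 10 FPKM in 53 precursors and did not pass (difference -0.24, SE 0.32, adjusted p = 0.701). Mafa, a factor of mature beta cells, was listed at 0 FPKM in every precursor set and reached at most 0.0495 FPKM in a set of hormone cells. Hhex, a delta-cell factor, reached 10 FPKM in 9 precursors.

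Fev is best known from serotonin neurons, and part of the serotonin pathway was present. Of 9 tested serotonin genes 4 were higher than in Neurog3-only cells and none lower, with a median of 0.769, beside 3.97% higher and 4.86% lower over all genes and their median of -0.013. Ddc, the decarboxylase of the last step of serotonin synthesis, measured 46.8, 84.4 and 205 FPKM in the precursors, 9.02 to 51.6 FPKM in Neurog3-only cells and 8.31 to 33.4 FPKM in hormone cells. It was higher in the precursors in 6 of 6 sets against both classes, with differences of 2.24 (SE 0.24, adjusted p = 0.000711) and 2.06 (SE 0.46, adjusted p = 0.123). Gch1, which makes the cofactor for tryptophan hydroxylase, measured 19.5, 22.1 and 36.8 FPKM against 0.257 to 3.77 FPKM in Neurog3-only cells (difference 3.60, SE 0.40, adjusted p = 0.000791), and the vesicular monoamine transporter gene Slc18a1 was higher by 2.38 (SE 0.36, adjusted p = 0.00363). Against all other cells Ddc and Gch1 did not pass (adjusted p = 0.0674 and 0.0558), except with the mean of log2 values (adjusted p = 0.00238 and 0.00614 in limma). Cells with both Neurog3 and Fev overlapped with the precursors, at 15.4 to 67.4 FPKM for Ddc and 0.68 to 41.3 FPKM for Gch1. Against those cells 0 of 9 tested serotonin genes passed, on either scale. Tryptophan hydroxylase itself, the first and limiting step, was found in few cells, with Tph1 at 10 FPKM in 2 precursors, neither of which held Ddc at that level, and Tph2 and the serotonin transporter gene Slc6a4 in 0 of 90.

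Of 17 tested immediate-early genes, 2 were higher and 1 lower than in Neurog3-only cells, with a median of 0.138, beside 3.97% higher and 4.86% lower over all genes. That 1 lower gene is near the share over all genes. Fos, the best known of them, measured 99.7, 248 and 422 FPKM in the precursors and 25.3 to 233 FPKM in Neurog3-only cells (difference 1.82, SE 0.33, adjusted p = 0.00851), higher in 6 of 6 sets. Btg2, an antiproliferative gene that Neurog3 cells express, was lower, at -1.17 (SE 0.11, adjusted p = 0.000406). Adhesion and delamination genes were divided, with 2 of 17 higher and 2 lower against all other cells, beside 0.187% and 1.18% over all genes. Beside the 2 claudins and Vim, the zinc-finger repressor gene Snai2 was lower at -2.54 (SE 0.47, adjusted p = 0.0416), with at most 0.707 FPKM in a precursor set and a call kept only without E15.5 run 2. The cadherin gene Cdh1 measured 89.3, 123 and 223 FPKM and did not pass (difference 0.14, SE 0.20, adjusted p = 0.766).

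Across days the precursors were compared with a slope along embryonic day and run as a term, over 6 profiles that leave 3 residual degrees of freedom. Of 14261 genes 0 rose (0%) and 0 fell (0%) in limma, with 416 rising and 540 falling at an unadjusted p under 0.05. With the mean of log2 values 41 rose (0.287%) and 36 fell (0.252%). On that scale Gast fell by 1.95 per day (adjusted p = 0.000942 in limma) and Sct fell by 2.33 (adjusted p = 2.55e-05), while Iapp rose by 1.43 (adjusted p = 0.00699). Iapp was at 0 and 9.82 FPKM in the E13.5 precursors and at 319 and 208 FPKM at E15.5. Xist fell by 2.30 and Ddx3y rose by 1.57 per day on that scale, and Rpl13, low in E13.5 run 1, rose by 1.42. The step to E15.5, which these slopes span, cannot be told apart from embryo sex. The part of the composition of E13.5 run 1 in these slopes was not tested.

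Transcripts of the reporter were close to absent although the cells were sorted for its protein. At 1 FPKM or more eGFP was found in 3 of 90 precursors (3.33%, 95% exact interval 0.693 to 9.43%), 92 of 141 Neurog3-only cells (65.2%), 23 of 56 cells with both factors (41.1%, 28.1 to 55%) and 17 of 150 hormone cells (11.3%, 6.74 to 17.5%). The share was lower than in the other cells in 6 of 6 sets, with a mean difference of -29.19 percentage points and an exact paired permutation p of 0.03125, which is the smallest that 6 pairs allow, and 0.1562 after adjustment over the 5 measures tested. By mean level the difference from all other cells was -4.38 (SE 0.32, adjusted p = 0.0015), and it held without any one set. Since eGFP reports on Neurog3, this level moves with a transcript that was used to choose the cells.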

How the data were processed

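Single cells of Neurog3-eGFP mouse embryonic pancreas were read by SMART-seq. The deposited table holds 1 FPKM value per gene and cell, made by the authors with TopHat2 2.0.13, Cufflinks 2.2.0 and build mm10, all named without role or order in the submitters' processing notes. The gene annotation used for it was not given in those notes or the labels. Cells with a labelled total mass, read here as fragments, of at least 100000 and at least 1500 genes at 1 FPKM were kept. Cells were sorted singly into wells and no doublet caller was run. The members and the gene lists were chosen with earlier results of these data known.

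Mean FPKM over the cells of a class was computed in each of the 6 cell sets, and log2(mean + 1) was tested with limma 3.58.1 in R 4.3.3. The set was a block, the variance prior had a trend, and p-values were adjusted by Benjamini-Hochberg over all genes averaging 1 FPKM or more across the profiles, at a threshold of 0.05. The pseudocount of 1 understates the change of low genes. FPKM is no count, so no count model was used, and the depth enters only through the fragments per cell. The 7 genes that chose the classes were left out of the tested table. The script was tested on simulated data. Genes were named by rule: up to 15 higher and 12 lower genes with the largest differences past the threshold and the same sign in every set against all other cells, up to 8 each way in the other class comparisons, up to 6 each way for the slope, and for each list up to 4 genes past the threshold, or else the 2 with the largest differences. The markers and Pax4, Neurod1, Tph1, Tph2, Ppy, Pyy, Iapp and eGFP were named in every case. Other members of the lists, and Rpl13, Xist and Ddx3y, were named after their values were seen. Some genes that the rule names are not reported here. Alternatives were a pseudocount of 10 or 0.1, no filter, the mean over cells of log2(FPKM + 1), rescaled FPKM, no block, each run alone, each set left out, at least 300000 fragments, stricter limits for Neurog3, hormones or Fev, limma without a trend, and a reference without cells holding none of the 7 transcripts.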

Additional observations from a re-analysis of the deposited data

Results flagged for a closer look

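For 7 of 77 genes examined, the difference between precursors and other cells in 1 of the 6 cell sets lay far from the others by Dixon's criterion at 95%, on the scale of log2(mean FPKM + 1). Chance gives such a value in about 1 in 20 genes. Vwa5b2 differed by 0.85 in E15.5 run 2 and by -0.16 to 0.22 in the other 5 sets. Tph1, tryptophan hydroxylase, differed by 3.98 in E14.5 run 1 and by -1.24 to 0.25 in the others. Cldn4 differed by 2.75 in E13.5 run 1 and by 1.33 to 1.69 in the others. Arg1 and Serpina1a, both higher in hormone cells, differed by -0.79 and -1.8 in E14.5 run 2, against -4.79 to -3.61 and -4.07 to -3.32 in the others. Irx2, an Iroquois homeobox gene, differed by 0.88 in E13.5 run 2 and by -2.29 to -1.63 in the others. Gadd45a differed by -5.65 in E13.5 run 2 and by -2.91 to -1.53 in the others.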

How the results depend on the processing

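Counts are given as higher and lower genes at an adjusted p under 0.05 in limma. Against all other cells (29 and 184) they were 13 and 93 with a pseudocount of 10, 11 and 66 without the filter, 137 and 283 with the mean of log2 values, 2 and 22 in run 1 alone, 0 and 37 in run 2 alone, 7 and 36 with each hormone under 10 FPKM (5 sets, since E15.5 run 1 then has 4 precursors), and 4 and 109 without a trend. There were 79 higher genes with rescaled FPKM, 19 with Neurog3 under 10 FPKM, and 294 lower ones without the cells holding none of the 7 transcripts. Leaving out 1 set gave 7 to 16 and 53 to 116. Without the replicate block, which pairs the profiles of a set, 9 were higher against all other cells, 345 and 428 against Neurog3-only cells (595 and 727), and 3 higher against cells with both factors (0 and 0). Against Neurog3-only cells the counts were 375 and 441 without the filter, 158 and 229 in run 1, 68 and 67 in run 2, 1196 higher with the mean of log2 values, and 374 to 482 and 453 to 631 without 1 set. Against cells with both factors they were 27 and 20 with the mean of log2 values, 6 and 9 with rescaled FPKM, 2 higher in run 1, 3 and 2 in run 2, and 0 to 1 higher without 1 set (1 without either E13.5 set). Against hormone cells (6 and 36) they were 2 and 6 with a pseudocount of 10, 0 and 2 without the filter, 63 and 306 with the mean of log2 values, 30 and 21 with rescaled FPKM, 0 and 1 in each run alone, and 1 to 4 and 3 to 20 without 1 set. Along days they were 41 and 36 with the mean of log2 values and 1 and 1 with rescaled FPKM. The causes were not tested, except that single runs and left-out sets hold fewer profiles. No named gene past the threshold changed sign under any of these alternatives, but genes that did not pass did. With the mean of log2 values the difference from all other cells went from -0.72 to 1.29 for Gast, from -0.41 to 0.42 for Pax4 and from -0.54 to 1.24 for Tmem27. Against hormone cells rescaled FPKM moved the median of all genes from -0.217 to 0.0362. The share of precursors, 18.18%, was 2.63% with Fev at 100 FPKM or more, which could not be fitted because its 13 cells leave no set with 5, 13.33% with Neurog3 under 10 FPKM and 13.13% with each hormone under 10 FPKM. Few cells per set limit all differences.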
